A study of Homo sapiens with 4 samples.

Results

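The 29 genes described here make cholesterol and fatty acids or control that synthesis, and they were taken by symbol from the 17630 genes measured in 4 RNA sequencing libraries, 1 per group. Of these, 16 encode enzymes of the sterol branch, 7 in the mevalonate arm and 9 in the squalene to cholesterol arm. Another 7 encode enzymes of the fatty acid branch, 5 are regulators and 1 is a sterol carrier. All 29 were found in the tables, and 28 reached a value of 5 in any library; INSIG2 did not. The libraries came from H1, an established human embryonic stem cell line, during culture towards blood. Undifferentiated H1 cells gave the hESC library. A flow sort for APLNR gave the mesoderm-stage library on day 2 (APLNR+ MES, here MES), a sort for CD31 and CD34 gave the library of CD31+CD34+ HEPs on day 4 (HEP), and a sort for CD31 and CD43 gave that of CD31+CD43+ HPCs on day 7 (HPC). Custom mTeSR1 medium carried activin A at 40 ng/ml and BMP4 at 50 ng/ml for the first 2 days, VEGF at 40 ng/ml and bFGF at 50 ng/ml for the next 2 days, and VEGF and bFGF with the inhibitor SB-431542 for the last 3 days. With 1 library per group no value has a replicate error and no difference could be tested, and the depth behind the values is unknown.

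Cells build cholesterol from acetyl-CoA by way of mevalonate, isoprenoid units, squalene and lanosterol, and build fatty acids from the same acetyl-CoA by way of malonyl-CoA. Both branches are controlled by the SREBP transcription factors, encoded by SREBF1 and SREBF2: when membrane sterol is low, SCAP carries the precursor proteins from the endoplasmic reticulum to the Golgi, where they are cut, and the INSIG proteins hold SCAP back when sterol is plentiful. SREBP2 is known mainly for sterol genes and SREBP1 mainly for fatty acid genes, and both act at promoters together with NF-Y, which binds the CCAAT box, and SP1, which binds the GC box.

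Promoters from the RefSeq table (build GRCh38.p14, 250 bases before to 50 bases after the gene start) were found for 25 of the 29 genes, 34 promoters in all. The CCAAT box was more frequent in promoters of sterol genes than in the table as a whole, so 4 sterol promoters with it and 1 fatty acid promoter without it are printed, each as the longest stretch before the start that holds no annotated exon. They were chosen after their matches and the expression values had been seen. Capitals mark CCAAT on either strand, where ATTGG is the box read on the opposite strand, and each sequence runs 5′ to 3′ in the direction of the gene. NSDHL, MVD, DHCR7 and LSS encode sterol enzymes that were lower in HPC than in HEP, and ELOVL6, which encodes a fatty acid elongase, is shown only for its lack of the box.
NSDHL, chrX:152830813-152830966, plus strand: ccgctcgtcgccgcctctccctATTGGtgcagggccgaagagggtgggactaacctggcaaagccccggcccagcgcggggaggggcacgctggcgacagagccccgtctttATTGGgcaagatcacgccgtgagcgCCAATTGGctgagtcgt
MVD, chr16:88663162-88663297, minus strand: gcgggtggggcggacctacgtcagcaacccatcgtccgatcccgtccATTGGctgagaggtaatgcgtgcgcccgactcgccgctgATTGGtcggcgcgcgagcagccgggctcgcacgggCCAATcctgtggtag
DHCR7, chr11:71448436-71448643, minus strand: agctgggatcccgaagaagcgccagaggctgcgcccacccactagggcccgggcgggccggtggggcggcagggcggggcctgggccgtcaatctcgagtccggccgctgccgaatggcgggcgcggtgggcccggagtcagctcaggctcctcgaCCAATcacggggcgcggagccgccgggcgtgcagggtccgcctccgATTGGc
LSS, chr21:46228825-46229024, minus strand: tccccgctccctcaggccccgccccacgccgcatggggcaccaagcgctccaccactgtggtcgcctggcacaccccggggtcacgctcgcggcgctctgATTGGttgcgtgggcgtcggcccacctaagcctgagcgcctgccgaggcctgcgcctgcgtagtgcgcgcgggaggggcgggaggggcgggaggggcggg
ELOVL6, chr4:110198677-110198841, minus strand: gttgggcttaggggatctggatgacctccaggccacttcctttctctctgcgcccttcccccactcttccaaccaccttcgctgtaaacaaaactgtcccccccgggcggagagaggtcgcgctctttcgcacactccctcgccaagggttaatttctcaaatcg

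CCAAT stood on either strand in a promoter of 11 of the 13 sterol enzyme genes with a promoter in the table (84.6%), all but PMVK and CYP51A1. It stood in 4 of 6 fatty acid genes (66.7%), 2 of 5 regulators (40.0%) and in STARD4. It stood in 39.7% of all 27305 genes with a promoter and in 34.6% of all 35116 promoters. At least 3 matches in 1 promoter were found for 6 of the 13 sterol genes (46.2%), which were MVK, MVD, IDI1, FDPS, NSDHL and EBP, for 0 of the 6 fatty acid genes, and for 3.92% of all genes. In NSDHL the run CCAATTGG is counted as 2 matches, 1 on each strand, which overlap. The matches of IDI1 at -132 and -129 overlap in the same way, and IDI1 reaches 3 only with both counted. The GC box GGGCGG stood in 12 of the 13 sterol genes (92.3%) and all 6 fatty acid genes, against 48.3% of all genes. The sterol regulatory element TCACNCCAC was searched on both strands as well. It was found in 1 of the 25 genes (4.00%), SREBF2, against 1.39% of all genes. It is printed here in 30 bases with the element in capitals because SREBF2 encodes the factor that binds it. Unlike the stretches above, these bases lie within annotated exons, as do all 250 before that start.
SREBF2, chr22:41832962-41832991, plus strand: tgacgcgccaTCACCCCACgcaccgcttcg
These matches describe the letters in the windows and do not show binding, and the libraries measured no binding. Only exact matches were counted, so a variant of an element would be missed. ACAT2, FDFT1, SQLE and FASN had no promoter to search.

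**Figure D1:**
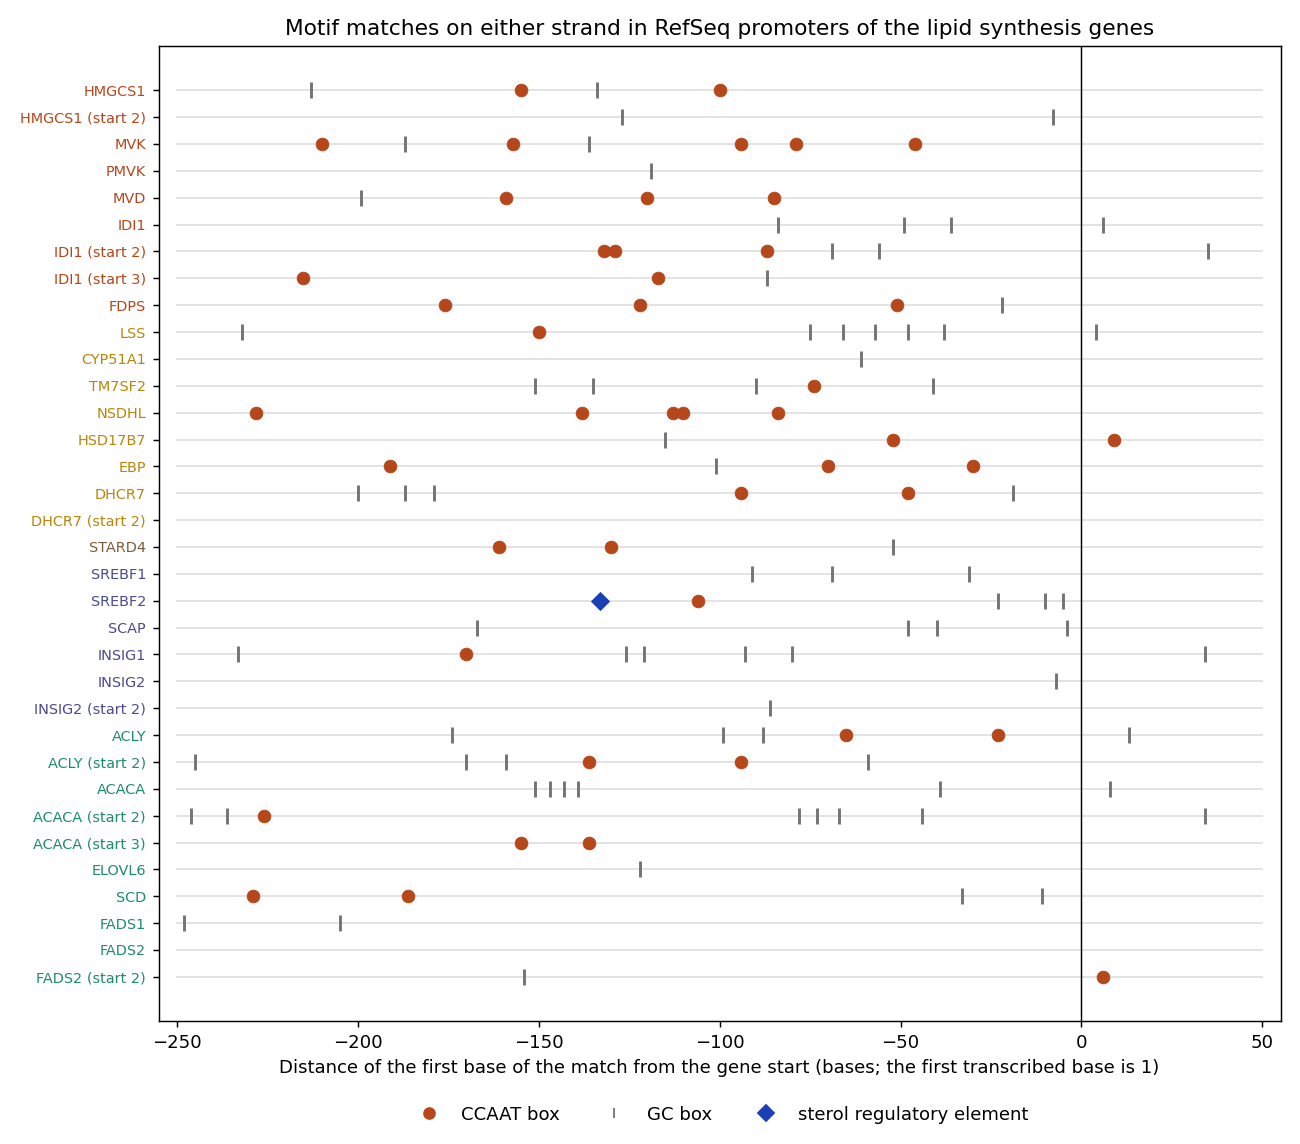
Positions of CCAAT (circles), GGGCGG (ticks) and TCACNCCAC (diamond) on either strand in the 34 RefSeq promoters of 25 genes, with the distance from the gene start in bases on the horizontal axis and 1 row per promoter, coloured by arm or branch. The mevalonate and squalene to cholesterol rows carry most of the circles, and the diamond stands in the SREBF2 row only.

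Values are the authors' normalised expression signal, whose measure is not stated, so each gene is compared with itself across libraries and not with other genes. Each difference is the log2 of (value + 1) in the later library minus that in the earlier one, and on this scale low genes appear to change less than they do. A gene is called higher or lower where the difference is 1 or more in size, which is 2-fold, and the higher value is 5 or more. Calls are read against the share of all genes with 5 or more in either library of the pair that were called in the same direction. Summed values ranged from 306724 in HEP to 426980 in hESC. The sort and stage markers followed the labels in part. The APLNR value was 344 in MES against 0.57 in hESC, CD34 was 43.6 in HEP against 1.35 in MES, and SPN (CD43) was 24.4 in HPC against 0.97 in HEP. PECAM1 (CD31) reached no more than 1.83 in HEP and 7.49 in HPC, and PTPRC, the pan-leukocyte antigen, was at 0.04 or less in all 4. Markers of hepatocytes and yolk sac endoderm, other cells that make lipid, summed to 2.66, 27.6, 39.2 and 9.12 over 7 genes; ALB was listed at 0 throughout, and SOX17 (25.1 in MES, 26.9 in HEP) and APOA1 (10.7 in HEP) gave most of the MES and HEP sums. The other genes of the list, AFP, TTR, APOB and FOXA2, were at 0.45, 0.15, 0.32 and 0.65 in HEP. The sum was thus highest in the library where most sterol genes were highest through SOX17 and APOA1. The part of such cells in the sterol values was not tested. In bulk libraries, fewer cells of a type and less RNA per cell cannot be told apart.

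Differences between libraries also followed the GC content of transcripts. For MES against HEP the Spearman rho between GC content and the difference was 0.71 over the 6369 genes whose mean reached 5. It was 0.70 over the 29 genes, whose GC content ranged from 37.2% to 65.3%. Genes of a library share its preparation, and no p is given. Calls and medians of the 29 genes are therefore given both as deposited and with the GC trend of each library removed, which also brings the libraries to a common median level. Over genes at 5 or more in either library of a pair, the rescalings tried moved the median difference of all genes by up to 0.52, from hESC to HPC.

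Most of the 29 genes were highest in one of the middle libraries. As deposited, 15 were highest in HEP, 10 in MES, 3 in HPC and 1 in hESC, or 16, 8, 4 and 1 with the GC trend removed. Of the 16 sterol genes 9 were highest in HEP, 6 in MES, 1 in HPC and 0 in hESC, or 11, 3, 2 and 0 with the GC trend removed. Of the 7 fatty acid genes 4 were highest in HEP and 3 in MES, or 3 and 4 with the trend removed. Among the 8174 genes with 5 or more in any library, the highest library was hESC for 45.4%, MES for 21.1%, HEP for 18.5% and HPC for 15.1%. With the trend removed these shares were 30.5%, 22.4%, 20.6% and 26.4% of 7615 genes. The highest library changed with the scale for 9 of the 29 genes. HMGCS1, SQLE, CYP51A1 and STARD4 moved from MES to HEP, SREBF2 and FASN from HEP to MES, TM7SF2 from HEP to HPC, SCAP from HPC to hESC and INSIG2 from hESC to HPC. The values, peaks and orders of single genes given next are those as deposited.

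The mevalonate arm turns acetyl-CoA into farnesyl diphosphate. ACAT2, the thiolase that joins acetyl-CoA units, stood at 181 in hESC and 349 in MES, then at 240 in HEP and 99.9 in HPC. HMGCS1, the HMG-CoA synthase, stood at 38.9, 85.8, 37.0 and 15.9 in the same order. MVK, mevalonate kinase, stood at 7.77, 22.5, 31.5 and 12.3. The first pair peaked in MES and MVK in HEP, and all 3 were lower in HPC than in HEP. PMVK, phosphomevalonate kinase, went the other way, at 6.46, 3.75, 5.43 and 9.13, lowest in MES and highest in HPC. MVD, the decarboxylase that makes isopentenyl diphosphate, stood at 51.3, 113, 189 and 68.3. IDI1, the isomerase of that product, stood at 36.4, 57.2, 10.5 and 8.92. FDPS, farnesyl diphosphate synthase, stood at 191, 263, 513 and 217. MVD and FDPS shared the HEP peak of MVK, whereas IDI1 was high in hESC and MES and low in HEP and HPC. Reads of FDPS may be shared with 8 annotated pseudogenes. ACAT2 overlaps TCP1 and SOD2 on the opposite strand, and counting by strand is not stated. TCP1 stood at 205, 124, 38.1 and 56.2 and SOD2 at 44.9, 20.6, 8.47 and 13.5. Both had their peak in hESC, and their share of the ACAT2 signal was not tested. MVK overlaps MMAB on the opposite strand, and MMAB stood at 4.59, 6.97, 11.1 and 8.50, with its peak in HEP as MVK had; its share of the MVK signal was not tested.

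The squalene to cholesterol arm starts with FDFT1, squalene synthase, which stood at 120 in hESC and 143 in MES, then at 211 in HEP and 121 in HPC. SQLE, the squalene epoxidase, stood at 50.6, 71.3, 66.9 and 47.9. LSS, which closes the ring to lanosterol, stood at 39.7, 73.5, 121 and 39.8. LSS and FDFT1 thus ended in HPC near their hESC values after a peak in HEP. SQLE varied least of the 3 as deposited and most with the GC trend removed, when its lowest value was 29.9 (hESC) and its highest 116.5 (HEP). CYP51A1, the lanosterol demethylase, stood at 63.0, 113, 55.1 and 31.2. TM7SF2, a sterol reductase, stood at 16.0, 11.5, 38.2 and 31.9. NSDHL, which removes methyl groups at carbon 4 together with other enzymes, stood at 19.8, 40.2, 51.7 and 23.8. CYP51A1 peaked in MES, NSDHL in HEP, and TM7SF2 was the only gene of this arm lower in MES than in hESC. HSD17B7, the keto-reductase of the same demethylation, stood at 22.3, 33.8, 18.4 and 12.7. EBP, the sterol isomerase, stood at 48.4, 61.1, 69.9 and 61.7. DHCR7, which makes cholesterol from 7-dehydrocholesterol, stood at 21.7, 50.3, 70.1 and 30.8. EBP had the narrowest range of the arm, and DHCR7 had the same order of libraries as NSDHL. TM7SF2 overlaps VPS51 on the same strand, and VPS51 stood at 49.3, 42.0, 79.3 and 60.1, the same order of libraries as TM7SF2; its share of the TM7SF2 signal was not tested. CYP51A1 has 3 annotated pseudogenes and 2 annotated coding genes that overlap it on the same strand, and HSD17B7 has 2 pseudogenes.

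**Figure D2:**
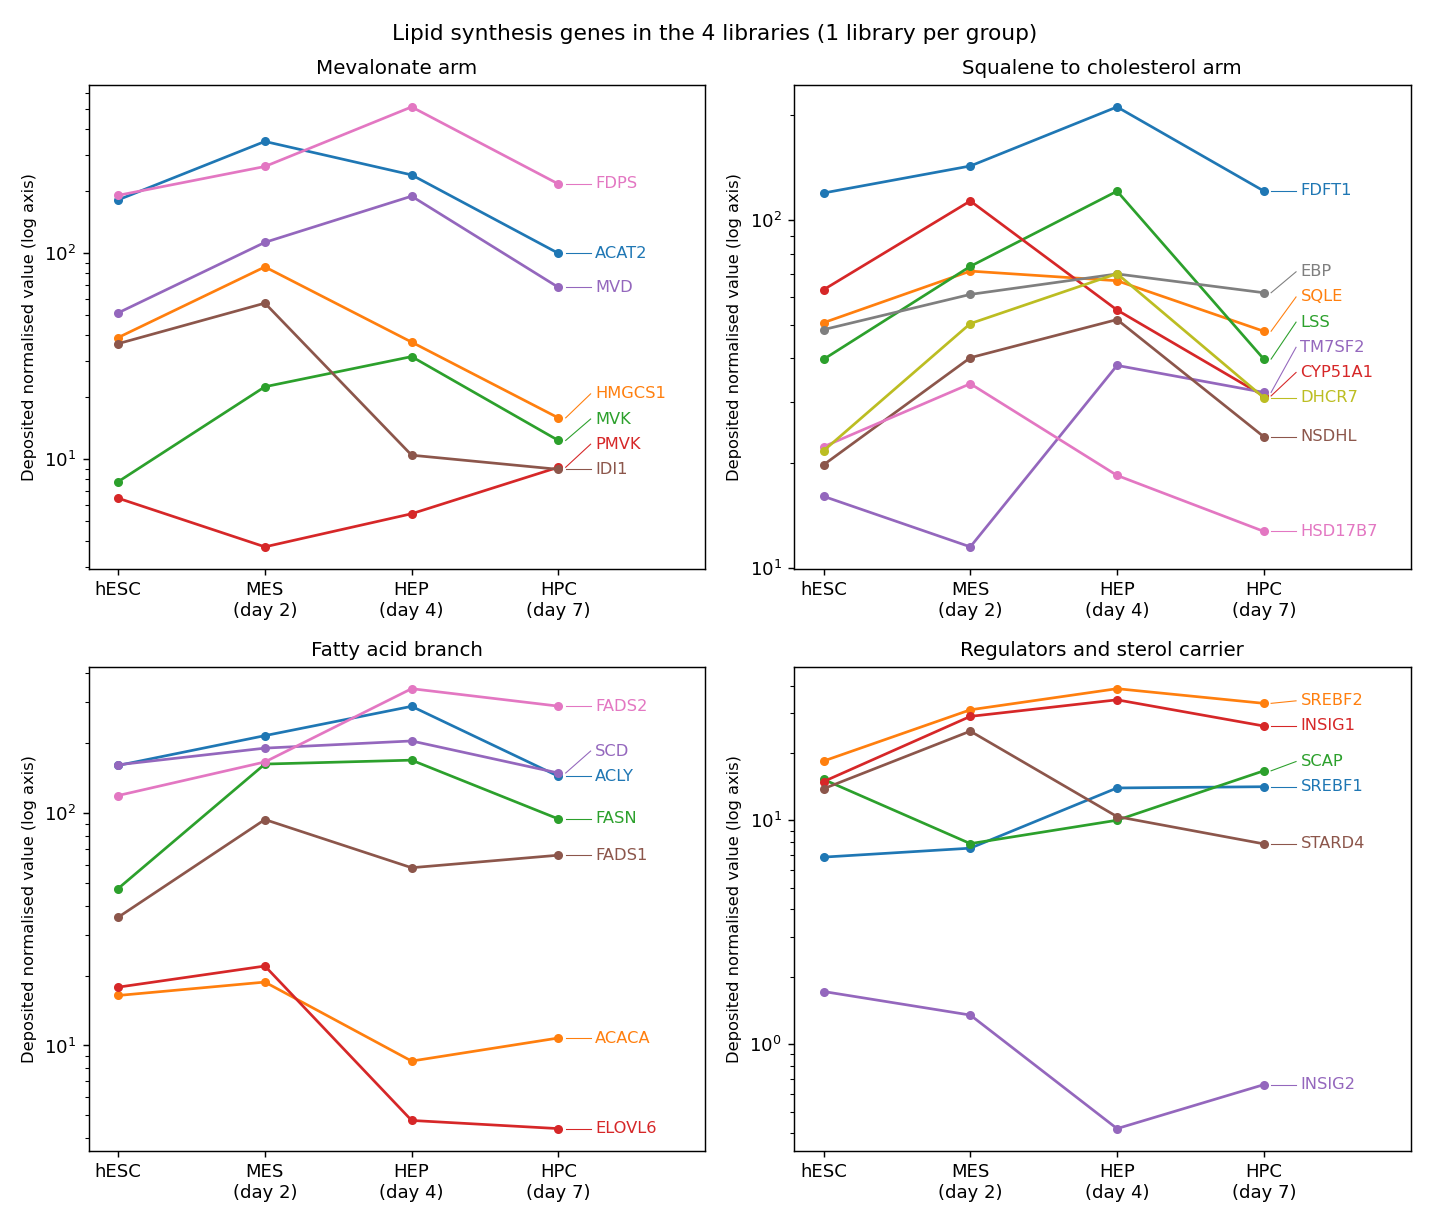
Deposited normalised value of each gene (logarithmic axis) in the 4 libraries, 1 point per library and no error bars because each group is 1 library; the 4 panels hold the mevalonate arm, the squalene to cholesterol arm, the fatty acid branch, and the regulators with the sterol carrier. Most sterol lines peak in MES or HEP and run down to HPC, with PMVK as the line that goes up.

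Of the regulators, SREBF2, the sterol-side factor, stood at 18.4 in hESC and 31.2 in MES, then at 38.7 in HEP and 33.3 in HPC. SREBF1 stood at 6.85, 7.51, 13.95 and 14.1. SCAP, the escort protein, stood at 15.2, 7.87, 10.01 and 16.6. SREBF2 thus had the order HEP, HPC, MES, hESC, SREBF1 was higher in the later pair of libraries, and SCAP was lowest in MES. INSIG1, an anchor that is itself an SREBP target, stood at 14.9, 29.1, 34.5 and 26.4, and INSIG2, its relative, at 1.72, 1.35, 0.42 and 0.66. STARD4, a soluble sterol carrier, stood at 13.8, 25.0, 10.4 and 7.85. None of the 5 regulators was called in any of the 4 comparisons as deposited. With the GC trend removed INSIG1 was called higher from hESC to MES (1.13), from MES to HEP (1.04) and from hESC to HPC (1.57), and the other 4 were not called.

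In the fatty acid branch, ACLY, which splits citrate to cytosolic acetyl-CoA, stood at 160 in hESC and 215 in MES, then at 288 in HEP and 144 in HPC. ACACA, the carboxylase that makes malonyl-CoA, stood at 16.4, 18.7, 8.57 and 10.8. FASN, fatty acid synthase, stood at 47.3, 162, 169 and 94.3. ACLY and FASN peaked in HEP with MES next, whereas ACACA was low in the later pair. ELOVL6, which lengthens palmitate, stood at 17.8, 22.0, 4.76 and 4.39. SCD, the delta-9 desaturase, stood at 161, 190, 204 and 149. SCD kept within a narrower range than the others as deposited, though it ran from 115 (hESC) to 286 (HEP) with the GC trend removed, and ELOVL6 was low in HEP and HPC. FADS1, the delta-5 desaturase, stood at 35.6, 93.8, 58.2 and 65.9, and FADS2, the delta-6 desaturase, at 119, 166, 343 and 288. The neighbours FADS1 and FADS2 overlap on opposite strands and peaked in different libraries, FADS1 in MES and FADS2 in HEP. FADS2 also overlaps FEN1, which stood at 58.2, 55.3, 30.6 and 29.2, higher in hESC and MES than in HEP and HPC. The share of overlapping genes in the FADS1 and FADS2 signals was not tested.

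From hESC to MES, over the 2 days with activin A and BMP4, both branches were higher. The calls were 6 higher and 0 lower of the 29 genes, where 8.97% of all genes tested were called higher and 8.76% lower. Those called higher were FASN (1.76, a value ratio of 3.43), MVK (1.42, 2.89), FADS1 (1.37, 2.63), DHCR7 (1.18, 2.32), HMGCS1 (1.12, 2.20) and MVD (1.12, 2.20). NSDHL at 0.99 and ACAT2 at 0.94 were just outside. With the GC trend removed the same 6 were called higher, along with ACAT2, CYP51A1, NSDHL, STARD4 and INSIG1, which makes 11 higher and 0 lower against 10.7% and 5.77% of all genes. At any size 14 of 16 sterol genes were higher in MES, all but PMVK and TM7SF2, and so were 7 of 7 fatty acid genes, against 37.6% of all genes as deposited. With the trend removed the counts stood at 14 and 7, against 47.7% of all genes. The median difference was 0.74 in the sterol branch and 0.42 in the fatty acid branch, against -0.21 over all genes tested. It was 0.93 and 0.52 against -0.04 with the trend removed.

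From MES to HEP the sterol branch split, and the split followed GC content. As deposited 2 genes were called higher, TM7SF2 (1.65) and FADS2 (1.04), against 8.08% of all genes, and FDPS at 0.96 was just outside. The 6 called lower were IDI1 (-2.35), ELOVL6 (-1.996), HMGCS1 (-1.19), STARD4 (-1.19), ACACA (-1.04) and CYP51A1 (-1.03), against 33.9% of all genes. The 16 sterol differences had a rho of 0.79 with GC content. With the GC trend removed this rho was -0.02, and 0 of the 29 genes were called lower, against 12.7% of all genes. HMGCS1, STARD4 and CYP51A1 then each had a difference of 0.61, the opposite direction, while IDI1 (-0.71), ELOVL6 (-0.97) and ACACA (-0.64) kept a negative one without a call. The 4 called higher with the trend removed were TM7SF2 (1.23), SQLE (1.17), FDFT1 (1.09) and INSIG1 (1.04), against 9.46% of all genes. With GC content taken from the longest transcript of each gene, a setting chosen after the data were seen, 1 was. The medians were 0.40 in the sterol branch and 0.06 in the fatty acid branch as deposited, and 0.30 and -0.46 with the trend removed. Over all genes tested the median was -0.39, or -0.05 with the trend removed.

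**Figure D3:**
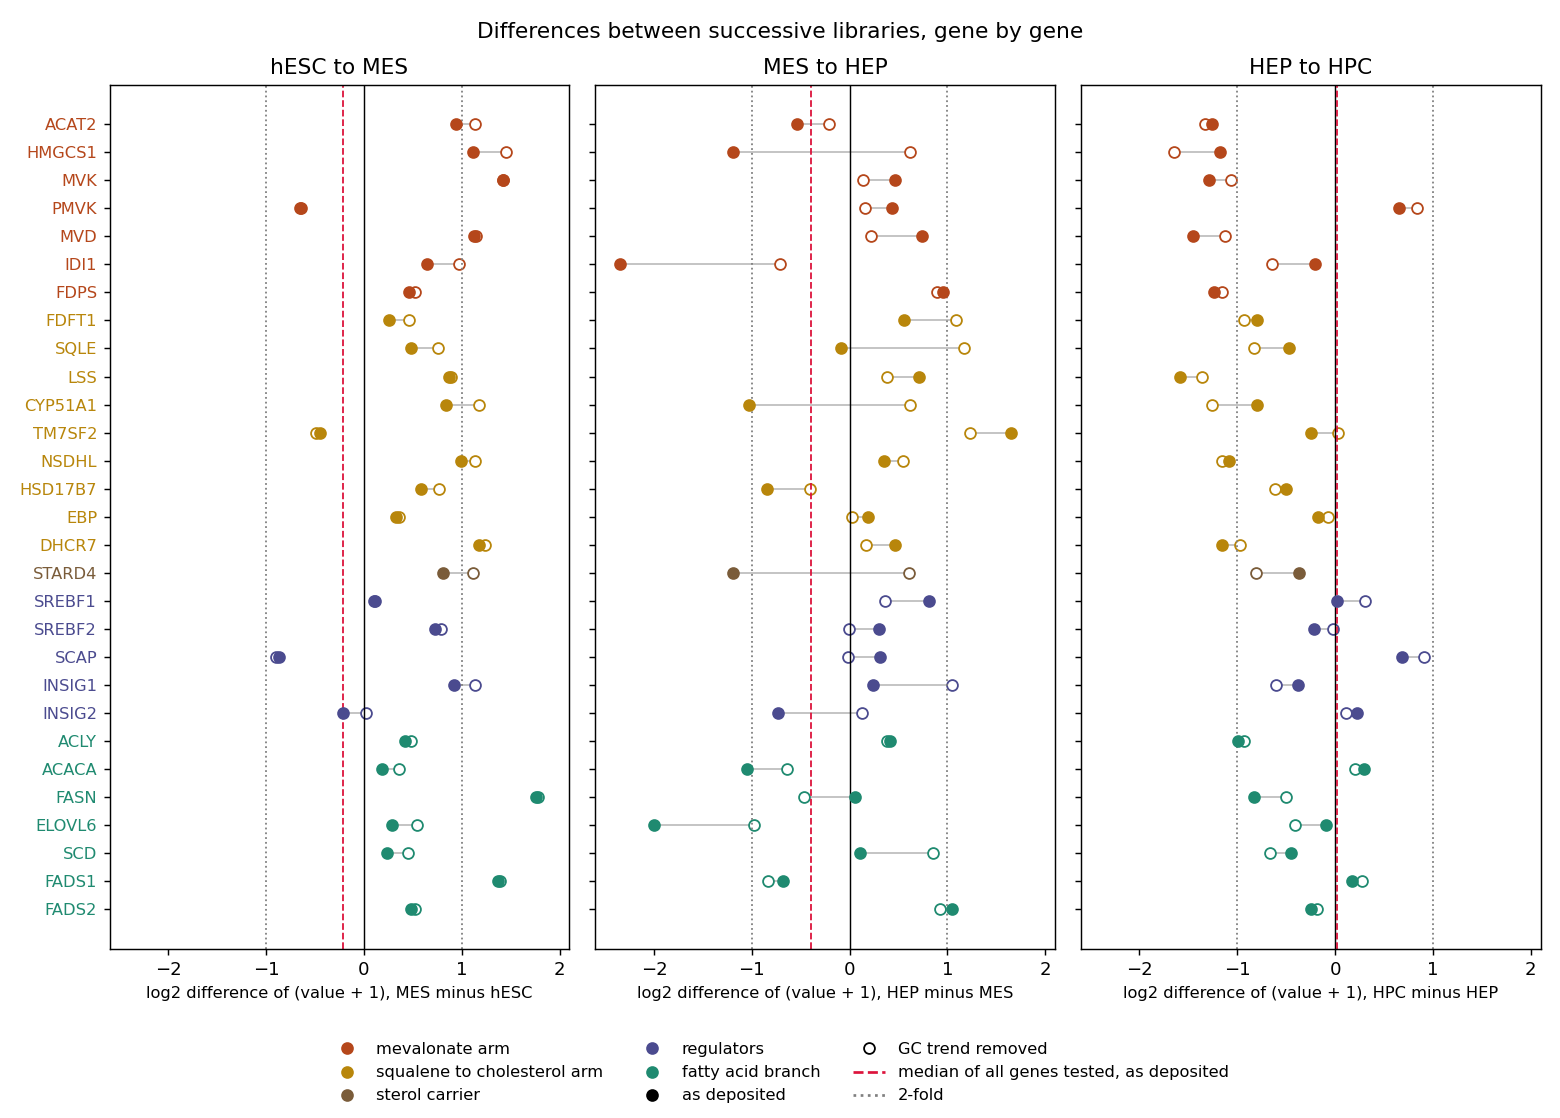
Log2 difference of (value + 1) for each of the 29 genes in the 3 successive comparisons, as deposited (filled) and with the GC trend removed (open), coloured by arm or branch; dotted lines mark 2-fold and the dashed line the median of all genes tested as deposited. HMGCS1, CYP51A1 and STARD4 change side between the scales from MES to HEP, and the 8 genes called lower as deposited from HEP to HPC lie beyond the dotted line in the sterol rows.

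From HEP to HPC, over the 3 days with SB-431542 added, the sterol genes were lower as a group. The fatty acid genes were mixed, with a median that was lower to a smaller extent. This comparison shares the HEP library with the one before it. As deposited 8 of the 29 genes were called lower, all in the sterol branch, and 0 higher, against 10.7% and 8.99% of all genes tested. They were LSS (-1.58, a value ratio of 0.33), MVD (-1.46, 0.36), MVK (-1.29, 0.39), ACAT2 (-1.26, 0.42), FDPS (-1.24, 0.42), HMGCS1 (-1.17, 0.43), DHCR7 (-1.16, 0.44) and NSDHL (-1.09, 0.46). In the mevalonate arm 5 of 7 were called and in the later arm 3 of 9. With the trend removed 8 were again called lower and 0 higher, against 9.55% and 7.22%: CYP51A1 (-1.25) was called and DHCR7 (-0.97) was not, and the other 7 were called on both scales. At any size 15 of 16 sterol genes were lower, all but PMVK, or 14 of 16 with the trend removed, when TM7SF2 was at 0.03. Of the 7 fatty acid genes 5 were lower on both scales, and ACACA (0.30, or 0.20 with the trend removed) and FADS1 (0.18, or 0.27) were higher. Of all genes 48.5% were lower as deposited and 47.7% with the trend removed. None of the 7 fatty acid genes was called on either scale, but ACLY at -0.99 was just outside, FASN stood at -0.83, and ELOVL6 was under 5 in both libraries as deposited and could not be called there. The sterol and fatty acid medians were -0.94 and -0.25 as deposited and -1.01 and -0.41 with the trend removed, against 0.02 and 0.04 over all genes. The sterol median was therefore lower by 0.70 and by 0.60, a difference that 1 library per group gives no means to test. SREBF2 (-0.21), SREBF1 (0.02) and SCAP (0.68) were not called in the same comparison.

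Between the ends of the culture, hESC and HPC, the branches differed little. This comparison uses the hESC and HPC libraries of those above and is not separate evidence. As deposited FADS2 (1.27) was called higher, against 11.1% of all genes, and IDI1 (-1.91), ELOVL6 (-1.80) and HMGCS1 (-1.24) lower, against 37.4%; CYP51A1 at -0.99 was just outside. With the trend removed FADS2 (1.26), INSIG1 (1.57) and SQLE (1.10) were called higher and none lower, against 16.2% and 17.0%, and HMGCS1 had the opposite direction (0.42). The sterol and fatty acid medians were 0.10 and -0.12 as deposited and 0.38 and 0.64 with the trend removed, so that their order depended on the scale. LSS (0.00) and FDFT1 (0.02) were among the sterol genes whose deposited values in HPC were close to those in hESC.

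Across the 116 differences of the 29 genes in the 4 comparisons, which share libraries, 26 were called as deposited. Of these, 15 were called in the same direction in all 5 planned rescalings, the GC trend removal among them. The share of calls kept over all genes was not computed, so whether 15 of 26 is many or few is unknown. The 15 were the 6 from hESC to MES, TM7SF2 from MES to HEP, FADS2 from hESC to HPC, and ACAT2, HMGCS1, MVK, MVD, FDPS, LSS and NSDHL from HEP to HPC.

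**Figure D4:**
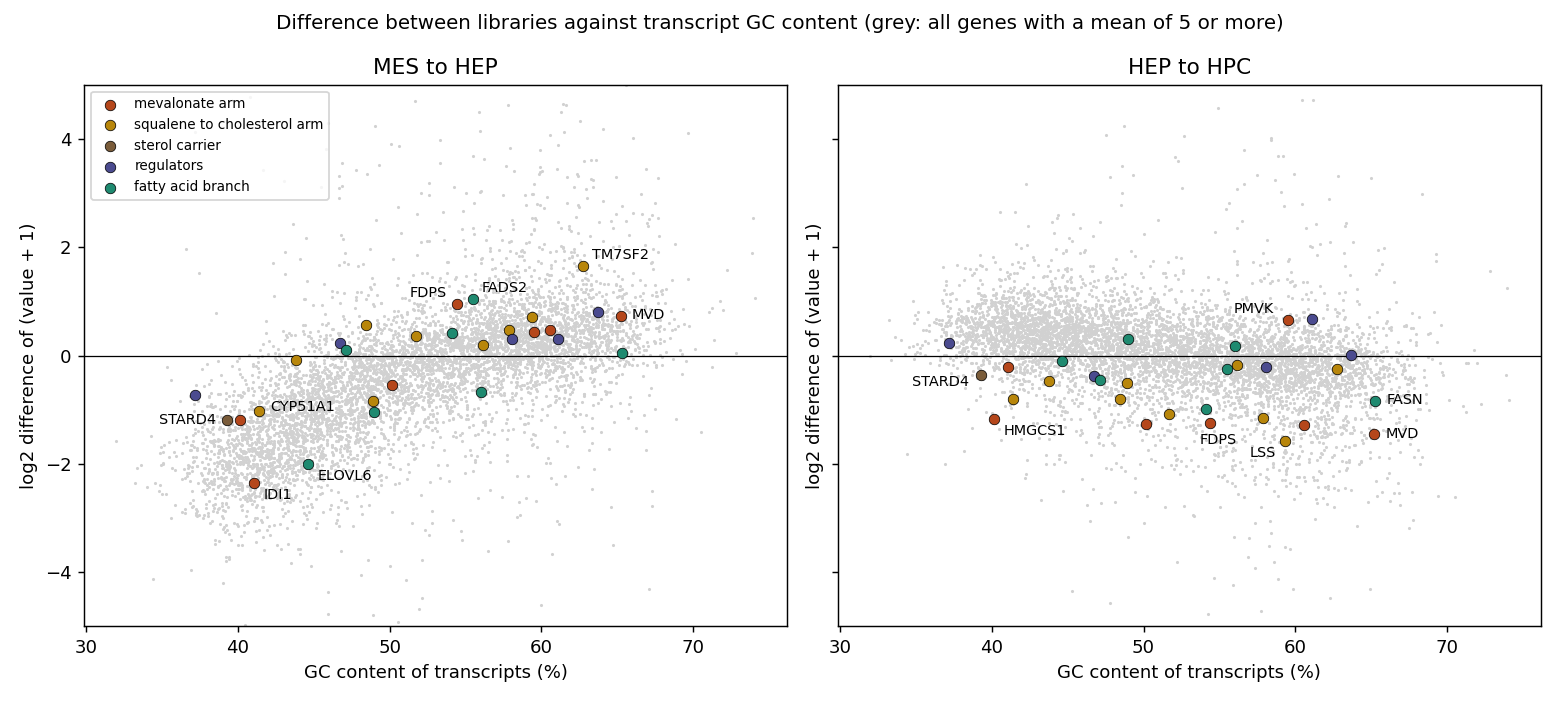
Log2 difference of (value + 1) as deposited against transcript GC content in percent, from MES to HEP (left) and from HEP to HPC (right), with the 29 genes coloured by arm or branch over the 6369 genes whose mean reached 5 in grey; grey points beyond 5 in size are outside the frame. From MES to HEP the genes lie along the sloping cloud (rho 0.70 for the 29), whereas from HEP to HPC they show little slope (rho -0.08, against -0.43 for all genes) and the called sterol genes lie low at both ends of the GC range, from HMGCS1 at 40.2% to MVD at 65.2%.

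Other genes of the pathways were read from lists that did not enter the counts above. Of 8 other genes listed with sterol synthesis, 7 were higher in MES than in hESC at any size and 0 were called as deposited. With the trend removed 8 were higher and 2 were called, MSMO1 (1.22) and SC5D (1.01). The shares of all genes are those given for the same comparisons above. From MES to HEP 5 of the 8 were called lower as deposited, where 33.9% of all genes were, and 0 with the trend removed, where 12.7% were. Among these were MSMO1 (-1.58), SC5D (-1.41), LBR (-1.63) and ACAT1 (-2.26), and their differences with the trend removed lay between -0.92 (ACAT1) and 0.33 (MSMO1 and SC5D). From hESC to HPC SC5D (-1.04), LBR (-1.37) and ACAT1 (-1.72) were called lower as deposited, where 37.4% of all genes were. They were not called with the trend removed. MSMO1 was at -0.57 without a call as deposited and was called higher with the trend removed (1.26), where 16.2% of all genes were. From HEP to HPC 0 of the 8 were called on either scale, but only 5 reached 5 in the pair as deposited, or 7 with the trend removed. The list median was -0.33, or -0.66 with the trend removed, smaller in size than the -0.94 and -1.01 of the 16 enzymes above. Over those that reached 5 it was -0.41, or -0.69. At any size 3 of the 8 were higher as deposited, or 2 with the trend removed. ACAT1 (0.71, or 0.43) and GGPS1 (0.28, or 0.32) were among them. The proteases that cut the SREBP precursors were not called either: MBTPS1 stood at 17.1, 25.6, 23.5 and 23.1 and MBTPS2 at 0.97, 1.40, 0.76 and 1.46.

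Among genes of sterol uptake, storage and export, NPC1, which moves cholesterol out of lysosomes, stood at 6.51 in hESC and 12.1 in MES, then at 9.97 in HEP and 4.20 in HPC. It was called lower from HEP to HPC (-1.08, or -1.23 with the trend removed). ABCA1, a cholesterol exporter, stood at 4.15, 2.37, 2.33 and 7.66 and was called higher in the same comparison (1.38). MYLIP, a ubiquitin ligase that lowers sterol uptake, stood at 6.72, 0.46, 1.43 and 5.06. It was called lower from hESC to MES (-2.40) and higher from HEP to HPC (1.32). ABCA1 and MYLIP were both higher in HPC than in HEP on both scales, at values not far above the minimum of 5. In that comparison 8.99% of all genes were called higher and 10.7% lower, or 7.22% and 9.55% with the trend removed. At any size 4 of the 13 genes of this list were higher in HPC and 9 lower, or 5 and 8 with the trend removed. Among the lower ones were ABCG1 (-0.80, or -0.76 with the trend removed) and APOE (-0.98, or -0.64), which were not called there. NPC2, the soluble partner of NPC1, was called lower from MES to HEP (-1.40), where 33.9% of all genes were. APOE, a lipid-carrying apolipoprotein, was called lower from hESC to HPC (-1.17), where 37.4% of all genes were.

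Of 19 other genes of fatty acid synthesis and activation, ACSS2, which makes acetyl-CoA from acetate, had the largest difference from hESC to MES: it stood at 6.20, 43.4, 75.8 and 21.9. It was called higher from hESC to MES (2.62) and lower from HEP to HPC (-1.74). ELOVL1, an elongase of very long chains, stood at 8.03, 22.0, 52.2 and 31.8 and was called higher from hESC to MES (1.35) and from MES to HEP (1.21). SLC25A1, the mitochondrial citrate carrier that supplies ACLY, stood at 61.8, 70.3, 104 and 46.3 and was called lower from HEP to HPC (-1.15, or -0.83 with the trend removed and then not called). As deposited these 3 and TECR had their highest value in HEP, as ACLY and FASN did, and the other genes of the list had it elsewhere. Of all genes 18.5% had it in HEP, and FASN had it in MES with the trend removed. At any size 12 of the 19 were higher in HPC than in HEP and 7 lower, or 9 and 10 with the trend removed. FADS3 was called lower from hESC to MES (-1.59). In that comparison 2 of the 19 were called higher and 1 lower, against 8.97% and 8.76% of all genes. From MES to HEP 1 was called higher, against 8.08%. From HEP to HPC 0 were called higher and 2 lower, against 8.99% and 10.7%. From MES to HEP 4 of the 19 were called lower as deposited, where 33.9% of all genes were: ACSL3 (-2.55), ACSL4 (-1.56), MID1IP1 (-1.37) and HSD17B12 (-1.23), and with the trend removed ACSL3 (-1.66) and MID1IP1 (-1.65) still were. From hESC to HPC ACSS2 (1.67) and ELOVL1 (1.86) were called higher and ACSL3 (-3.00), HSD17B12 (-1.55) and ELOVL5 (-1.08) lower. These were 2 and 3 of the 19, where 11.1% of all genes were called higher and 37.4% lower. With the trend removed ME1 (1.29, 4.42, 2.29 and 4.18 as deposited) was called higher as well (2.28). ACSS2, ELOVL1 and ACSL3 were called as before, and HSD17B12 (-0.07) and ELOVL5 (0.43) were not. That made 3 higher and 1 lower of the 19, against 16.2% and 17.0% of all genes.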

How the data were processed

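The authors deposited 1 table per library holding a normalised expression signal per gene symbol with 2 decimals. Per the labels' protocols, Trizol RNA (2 ug per library) went into the TruSeq RNA Sample Prep Kit of Illumina. The submitters' processing notes name BWA, Bowtie, RSEM and build hg19. Roles, versions, annotation, strand use and whether values are FPKM or TPM are not stated there. Whole-read steps were looked for in low values and not found, so the depth stays unknown, without intervals or floors. Of 17634 rows, 4 that shared a date in place of a symbol were left out.

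Differences, medians and counts were computed in Python 3.11.15 (numpy 2.4.6, pandas 2.3.3, scipy 1.17.1) with a pseudocount of 1, a minimum of 5 and a log2 threshold of 1, without a test. For GC content, coding transcripts of GENCODE 29 were matched by symbol (17448 genes, 99.0%, and all 29 described) and their median taken. Genes whose mean reached 5 were sorted into 50 GC bins, each library's median log2 deviation per bin was smoothed over 5 bins, and this trend was divided out. That annotation and the RefSeq promoters are of another build than hg19. Overlapping genes and pseudogenes were read from the same annotation. The procedure was tested on simulated data. Other pseudocounts (0.1 and 5), other minimums (none and 20) and 5 other scalings were tried; GC content of the longest transcript was added after the data were seen. All 29 genes are named; from the other lists, those called are named, and otherwise the 2 with the highest mean, apart from some results that are not reported here. The genes, lists and tests were chosen with earlier results of these data known.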

Additional observations from a re-analysis of the deposited data

How the results depend on the processing

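No paired analysis was possible because each group is 1 library. Of the 1160 single-gene values under the 10 alternatives, 1029 kept their side of the threshold, 83 gained a call, 40 lost one and 8 called values reversed. Another 46 values, not called as deposited, changed sign. Calls of genes higher from hESC to MES numbered 12 with a common total, 12 when rescaled without mitochondrial, ribosomal protein, globin and histone genes, and 11 with either GC correction, against 6. From MES to HEP genes higher numbered 6 with median-of-ratios scaling, 7 with upper quartile scaling, 4 with a common total, 4 when rescaled without the named gene classes, 4 with the GC trend removed and 1 with the longest transcript, against 2. Genes lower numbered 3 with a pseudocount of 5, 2 in each of the 4 rescalings and 0 with either GC correction, against 6. From hESC to HPC genes higher numbered 2 with a pseudocount of 0.1, 8, 9, 7 and 8 in the 4 rescalings in the same order and 3 with either GC correction, against 1, and genes lower 0 with either GC correction, against 3.

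The fatty acid median from MES to HEP was -0.46 and, with the longest transcript, -0.41, against 0.06. From hESC to HPC it was 0.38 with a minimum of 20, 0.32, 0.45, 0.16 and 0.36 in the 4 rescalings, and 0.64 and 0.50 with the GC corrections, against -0.12. The sterol minus fatty acid median there was -0.36 with a minimum of 20 and -0.26 and -0.13 with the GC corrections, against 0.22. From HEP to HPC it lay between -0.74 and -0.53 in every alternative run, and genes lower between 7 and 10. With the GC trend removed HMGCS1, CYP51A1 and STARD4 each stood at 0.61 from MES to HEP and HMGCS1 at 0.42 from hESC to HPC; with the longest transcript they stood at 0.45, 0.42, 0.63 and 0.22. The causes were not tested. With 1 library per group and unknown depth, the spread between cultures is unknown.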

Other observations

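Of 14 genes of fatty acid oxidation, the opposite pathway, 13 were higher in HPC than in HEP at any size on both scales, where 3032 of 5894 genes tested were higher as deposited and 3391 of 6483 with the GC trend removed. None of the 14 was called on either scale. Only 9 of them reached 5 in the pair on each scale, as all genes tested did, and the rest could not be called. CPT1A (0.26 in HEP and 0.60 in HPC) and PPARA (0.35 and 0.63) were counted as higher at such low values. The median difference over the 14 was 0.45, or 0.51 with the GC trend removed, against -0.94 and -1.01 for the sterol branch. Over those that reached 5 it was 0.59, or 0.62. HADHA and HADHB, the subunits of the mitochondrial trifunctional protein, stood at 63.9, 59.3, 75.9 and 99.7 and at 26.3, 15.0, 20.4 and 38.0 in hESC, MES, HEP and HPC. From hESC to HPC SLC25A20, the carnitine carrier (2.66, 4.52, 3.66 and 7.52), ACADVL (29.6, 26.0, 43.5 and 65.8) and ACADS (1.99, 2.68, 6.34 and 8.72) were called higher, and HADHA and HADHB were too with the trend removed. That made 3 of the 14, or 5 with the trend removed, where 11.1% and 16.2% of all genes were called higher. HADHB was also called higher from MES to HEP with the trend removed (1.24), where 9.46% of all genes were. ACADM (15.3, 11.5, 1.36 and 2.87) and ACAA2 (67.0, 59.5, 15.9 and 19.4) were called lower as deposited, from MES to HEP and from hESC to HPC. With the trend removed ACADM was called lower from MES to HEP only and ACAA2 in neither. Of all genes 33.9% and 37.4% were called lower in these comparisons as deposited, or 12.7% and 17.0% with the trend removed.

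Among 14 genes of cell division MKI67, CCNA2 and AURKA had the order MES, hESC, HEP, HPC as deposited, as HMGCS1, IDI1, CYP51A1 and HSD17B7 had. Most of the other cell division genes were highest in hESC. With the trend removed HMGCS1 and CYP51A1 were highest in HEP, whereas MKI67, CCNA2 and AURKA stayed highest in MES. From hESC to MES 1 of the 14 was called higher, MKI67 (1.07), and 4 lower, against 8.97% and 8.76% of all genes. With the trend removed 1 was higher and 3 lower, against 10.7% and 5.77%. From MES to HEP 7 were called lower, where 33.9% of all genes were, or 3 with the trend removed, where 12.7% were. From HEP to HPC 0 of 14 were called lower on either scale, against 10.7% of all genes, or 9.55% with the trend removed. The median was 0.02 (-0.15 with the trend removed). PCNA was called higher as deposited (41.1 in HEP and 98.5 in HPC), where 8.99% of all genes were. With the trend removed 0 were called higher, against 7.22%. From hESC to HPC 11 of 14 were called lower, where 37.4% of all genes were, or 3 with the trend removed, where 17.0% were.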
